A study of Homo sapiens with 6 samples.

Results

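HSD11B1 is the enzyme that turns inactive cortisone into the active hormone cortisol inside cells. It lay 1.92-fold higher in miR-1287-5p overexpressing SUM159 cells than in control cells. For 6 measured genes that cortisol is known to induce, the fold changes lay between 0.887 and 1.07, and none passed the test for a difference. Only 0.00373% of all transcript clusters (the groups of probes that measure a gene on this array) passed it. Of 34 measured genes in a wider induced list, 7 (20.6%) were higher in every overexpression array than in all control arrays, 1 (2.94%) lower. Over all transcript clusters these shares were 6.88% and 4.33%. None of the 34 passed the test, and their median log2 fold change was 0.06, against 0.03 for all transcript clusters. Of 16 measured genes in a list that glucocorticoids repress, 2 (12.5%) were higher in every overexpression array and 0 lower. The genes described here are HSD11B1 and 9 further genes of the same pathway, namely the opposing enzyme HSD11B2, the cofactor-supplying enzyme H6PD, the glucocorticoid receptor NR3C1, and the receptor-induced genes FKBP5, PER1, SGK1, DUSP1, KLF9 and ERRFI1. HSD11B1 was chosen by its higher signal in these same arrays, so its difference is given as a description without a test. The other 9 genes were picked for their known roles, with earlier results of these data known. The wider lists were also chosen with those results known. Of the 10 genes, 9 had a transcript cluster with a symbol here, 1 each, among 53617 transcript clusters and 14884 genes with a symbol. NR3C1 had none and was not analysed.

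The cells were SUM159, an established line from a triple negative BC. RNA was taken from 3 cultures in which a lentivirus stably raised miR-1287-5p and from 3 that carried the empty vector, and each culture was measured on its own Affymetrix Human Gene 2.0 ST array. Both groups went through transduction, with particles whose names include GFP, and through puromycin selection, and both grew in the same medium. That medium held 1 µg/ml hydrocortisone, which is cortisol itself, with 5 µg/ml insulin and 5% serum, so every array comes from cells already exposed to the active hormone. Whether the cultures of a group came from separate transductions is not given in the sources used here, so the p-values measure the spread between these cultures.

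Cortisol acts through NR3C1, which sits in the cytoplasm with heat shock proteins and moves to the nucleus once hormone is bound. There it binds to DNA and induces a set of genes that is seen in many cell types. How much hormone the receptor meets depends on enzymes in the cell as well as on the supply from outside. HSD11B1, in the endoplasmic reticulum, makes cortisol from cortisone with NADPH that H6PD produces in the same compartment. HSD11B2 runs the reaction the other way, into cortisone, as in the kidney. FKBP5 lowers the receptor's affinity for hormone and PER1 is a repressor of the circadian clock. SGK1 is a kinase that is switched on through PI3K signals, DUSP1 removes phosphate from MAP kinases, KLF9 is a transcription factor and ERRFI1 blocks the EGF receptor.

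Sequences are shown for the microRNA that was overexpressed and for the DNA before the start of HSD11B1. Motif matches are shown at the starts of H6PD, FKBP5, SGK1, PER1 and DUSP1. The mature microRNA lies on the minus strand at chr10:98395271-98395292 (GRCh38.p14), within PYROXD2, and capitals mark its seed, bases 2 to 8.

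hsa-miR-1287-5p: uGCUGGAUcagugguucgaguc

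The 250 bases before the first annotated start of HSD11B1 lie on the plus strand at chr1:209685929-209686178 (RefSeq, GRCh38.p14). Starts further inside the gene are not covered by this window.

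HSD11B1: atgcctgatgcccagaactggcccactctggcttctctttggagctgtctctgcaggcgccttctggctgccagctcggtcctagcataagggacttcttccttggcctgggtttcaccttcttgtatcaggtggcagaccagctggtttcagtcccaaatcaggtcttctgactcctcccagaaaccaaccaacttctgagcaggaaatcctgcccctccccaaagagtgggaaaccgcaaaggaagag

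In windows of 300 bases (250 before a start and 50 after it, RefSeq, GRCh38.p14), both strands were searched for the full glucocorticoid response element (the arm AGAACA and, 3 bases on, its reverse complement TGTTCT), for the arm AGAACA alone, for the E-box CACGTG that clock proteins bind, and for the C/EBP motif GCAAT. The arm is part of the full element, so matches of the 2 can overlap. Of the 10 genes 9 have such windows, 18 in all, and HSD11B2 has none here. The full element, searched in this exact spelling only, was in 0 of these 18 windows and in 0.00285% of all 35116 windows. A string this rare would be missing from almost any 18 windows, so nothing is concluded from its absence. The arm was in 3 of the 18 windows (14.8% of all windows), the E-box in 3 (7.26%) and the C/EBP motif in 5 (24.5%). The HSD11B1 window held none of the 4 motifs. Capitals below mark the arm, read from the gene's own strand, at H6PD (chr1:9239628-9239663, plus strand), FKBP5 (chr6:35728563-35728598, minus strand) and SGK1 (chr6:134177836-134177871, minus strand), and then the E-box at PER1 (chr17:8152557-8152592, minus strand) and DUSP1 (chr5:172771283-172771318, minus strand). At H6PD the arm lies on the opposite strand and appears as its reverse complement. The E-box match in the other FKBP5 window is not shown.

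H6PD: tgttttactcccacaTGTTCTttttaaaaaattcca

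FKBP5: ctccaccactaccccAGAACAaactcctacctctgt

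SGK1: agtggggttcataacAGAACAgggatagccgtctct

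PER1: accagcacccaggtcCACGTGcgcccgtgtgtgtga

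DUSP1: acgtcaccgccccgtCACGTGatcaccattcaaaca

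A match describes letters only, and these windows do not reach the distant sites through which the receptor also acts.

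The arrays' median log2 signal was between 4.33 and 4.42, and each pair of arrays correlated with a Pearson's r of 0.970 to 0.988 over genes and other transcripts, which share the array and are no replicates. All 6 measured markers of a mesenchymal triple negative line lay above the median signal of all transcript clusters (4.37). Of 7 measured luminal and hormone receptor markers, 2 lay below it, ESR1 and PGR, the estrogen and progesterone receptors, and 5 above it, KRT18, GATA3, KRT8, KRT19 and FOXA1, the last 2 of them close to it. A principal component analysis was run on the 26808 transcript clusters above the median signal. Along its first component (55.7% of the variance), control replicates 1, 2 and 3 lay at −41.5, 60.6 and 23.4 and overexpression replicates 1, 2 and 3 at 8.10, −14.6 and −36.0. The groups therefore overlapped along the main direction in which these arrays differ. Differences were tested with limma, two-sided and with Benjamini-Hochberg adjustment over all transcript clusters, and 3 arrays against 3 limit the precision of each value.

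HSD11B1 (transcript cluster 16676988, chr1:209686179-209734929) had log2 signals of 4.52, 4.73 and 4.38 in control replicates 1, 2 and 3 and of 5.86, 5.66 and 4.93 in miR-1287-5p overexpressing replicates 1, 2 and 3. Every overexpression array lay above every control array, but overexpression replicate 3 lay only 0.21 above the highest control array. The group means were 4.54 ± 0.17 and 5.48 ± 0.49 (SD, n = 3 arrays per group), a log2 difference of 0.94. The spread was larger in the overexpressing cells, where the highest and lowest array differed by 0.92, against 0.35 in control cells. When any single array was dropped, the difference lay between 0.75 and 1.22. The control signal of 4.54 is close to the array-wide median, a range in which background can make a fold change look smaller.

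Other cell types that carry HSD11B1 were checked through their markers. The summed linear signal of the 5 measured adipocyte markers (of 7) was 175 to 186 in control arrays and 184 to 200 in overexpression arrays, and 3 of the 5 lay below the median signal. Lipid droplet protein CIDEC had a log2 difference of 0.50 and lipoprotein lipase (LPL) of 0.59, neither past an adjusted p of 0.05 in limma (0.817 and 0.869), while PPARG, the fat cell regulator, had −0.07. For 4 macrophage and leukocyte markers (of 6) the sums were 644 to 863 and 728 to 856, with 3 below the median signal, and CD14 at 0.46 (limma, adjusted p = 0.871). For 3 hepatocyte markers (of 5) they were 60.7 to 70.0 and 57.5 to 76.7, with 1 below the median signal, and for 2 fibroblast markers (of 7) 17.8 to 22.1 and 19.7 to 27.5, with both below it. CIDEC, LPL, CD14 and the hepatocyte marker ALB lay higher in every overexpression array than in all control arrays. That is 2 of 5 adipocyte (40%), 1 of 4 macrophage (25%), 1 of 3 hepatocyte (33.3%) and 0 of 2 fibroblast markers. Over all transcript clusters the share was 6.88%. The sums overlapped between the groups for each of these lists, but PPARG and CD68, the brightest genes of theirs, make up most of the adipocyte and macrophage sums. The part of these markers in the HSD11B1 difference was not tested.

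**Figure D1:**
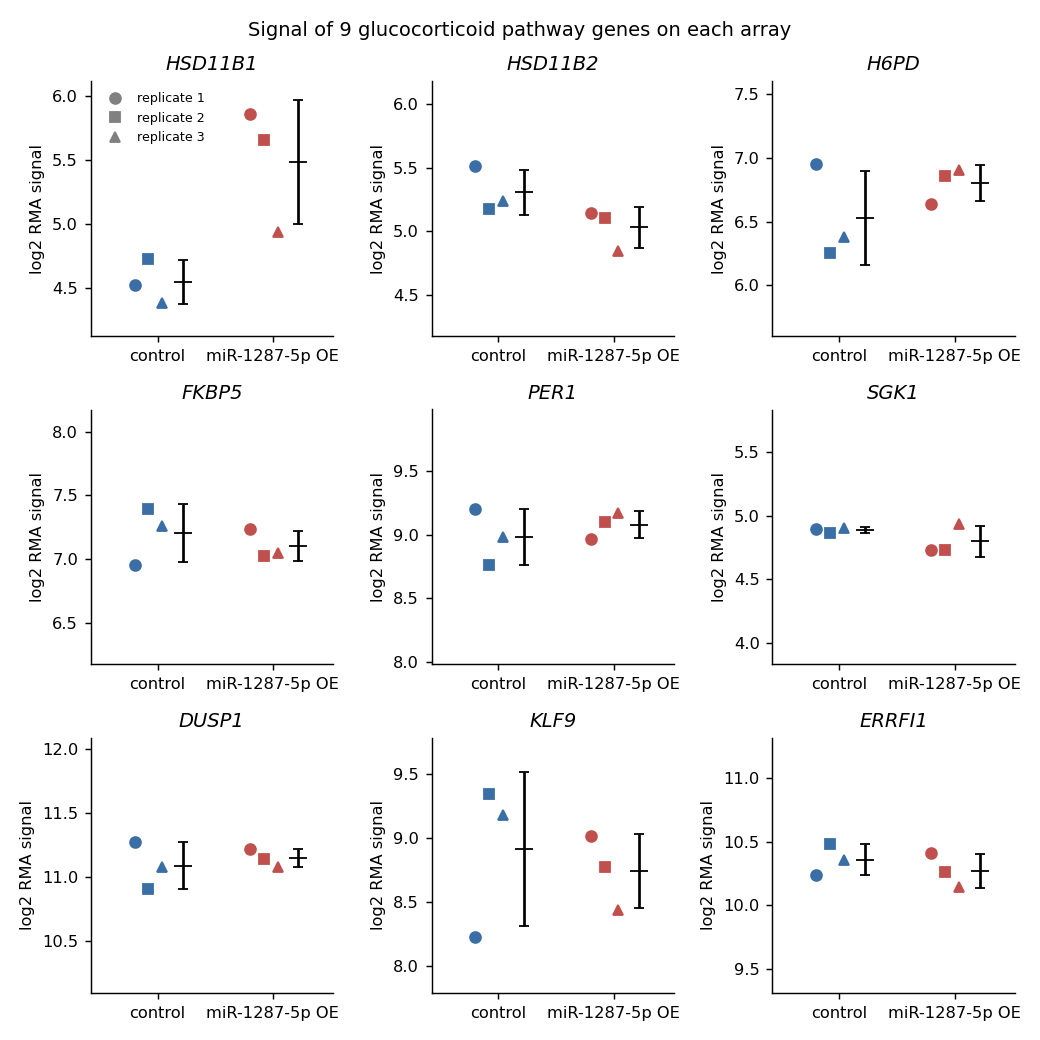
Log2 RMA signal of the 9 measured genes on each array (vertical axis, log2 units, each panel spanning 2 units), for control cells (blue) and miR-1287-5p overexpressing cells (red), with marker shape for the replicate number and black bars for the mean ± SD of 3 arrays. HSD11B1 is the only panel where the overexpression arrays all lie above the control arrays, HSD11B2 the only one where they all lie below.

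HSD11B2 (chr16:67429801-67437553), which inactivates cortisol, had log2 signals of 5.51, 5.18 and 5.24 in control replicates 1, 2 and 3 and of 5.14, 5.11 and 4.85 in the overexpressing replicates. All 3 overexpression arrays lay below all 3 control arrays, the nearest ones by a small margin. The means of 5.31 ± 0.18 and 5.03 ± 0.16 (SD, n = 3 arrays per group) differed by a log2 fold change of −0.28 (95% interval −0.63 to 0.08, limma, adjusted p = 0.871), so the difference did not pass. An exact permutation test gave a two-sided p of 0.1, the smallest that 3 arrays against 3 allow. Groups without overlap always give that value, so it only restates the order of the arrays. The other tested genes of the selection had a p of 0.4 to 0.7 in the exact permutation test.

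H6PD (chr1:9234774-9271337), which makes the NADPH that HSD11B1 uses, had log2 signals of 6.95, 6.26 and 6.38 in control replicates 1, 2 and 3 and of 6.64, 6.86 and 6.90 in the overexpressing replicates. Control replicate 1 was the highest array of all, above every overexpression array, so the groups overlapped. The log2 fold change was 0.27 (95% interval −0.21 to 0.75, limma, adjusted p = 0.872). Without control replicate 1 it was 0.48 (limma, adjusted p = 0.351), without control replicate 2 it was 0.13, and with array weights 0.40. Among the overexpression arrays the order of H6PD was the reverse of that of HSD11B1, since replicate 3 was the highest for H6PD and the lowest for HSD11B1.

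Of the 31 listed genes of steroid activation, synthesis and breakdown, 9 were measured, and apart from HSD11B1 the 8 others had log2 fold changes between −0.53 and 0.27. STAR, which carries cholesterol into mitochondria for steroid synthesis, had −0.53, with both group means (4.32 and 3.79) below the median of all transcript clusters. PGD, an NADPH-producing enzyme of the pentose phosphate pathway in the cytosol, had 0.13, and the dehydrogenase HSD11B1L, named for its likeness to HSD11B1, had 0.21. None of the 3 passed (limma, adjusted p of 0.865 to 0.880).

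None of the 8 tested genes of the selection (all measured ones but HSD11B1) passed an adjusted p of 0.05 in limma, where 0.00373% of all transcript clusters did, and 0 of 8 had an unadjusted p under 0.05 (by the methods' t-test also 0), where 2.96% of all transcript clusters were higher and 2.44% lower at that level. H6PD and KLF9 had an unadjusted p under 0.05 without control replicate 1, and H6PD also with array weights, while neither passed after adjustment there. Once the arrays were weighted, 11845 of the 53617 transcript clusters fell below that level, but only 2895 when all arrays counted equally. A weighted call such as that of H6PD is therefore common. The matching count without control replicate 1 is not given, so nothing is concluded from the calls made there. In 0 of the 8 did all overexpression arrays lie above all control arrays, against 6.88% of all transcript clusters, and in 1, HSD11B2, they all lay below, against 4.33%. For the 6 induced genes the fold changes lay between 0.887 and 1.07, and the 95% intervals, each taken alone, reached from 0.538-fold to 1.46-fold.

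FKBP5 (chr6:35573590-35728583) had log2 signals of 6.95, 7.40 and 7.26 in control replicates 1, 2 and 3 and of 7.24, 7.03 and 7.04 in the overexpressing replicates. The overexpression arrays all lay within the range of the control arrays. Its log2 fold change was −0.10 (95% interval −0.47 to 0.27, limma, adjusted p = 0.914), an interval whose upper end is 1.21-fold. It was −0.23 without control replicate 1 and −0.0031 without control replicate 2. FKBP5 is among the genes used most often as a readout of receptor activity.

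PER1 (chr17:8140472-8152404) had log2 signals of 9.20, 8.76 and 8.98 in control replicates 1, 2 and 3 and of 8.97, 9.10 and 9.17 in the overexpressing replicates. Here too the control arrays were both the highest and the lowest. The log2 fold change was 0.10 (95% interval −0.27 to 0.46, limma, adjusted p = 0.915).

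SGK1 (chr6:134169256-134318112) had log2 signals of 4.89, 4.86 and 4.90 in control replicates 1, 2 and 3 and of 4.73, 4.73 and 4.94 in the overexpressing replicates. The first 2 overexpression arrays lay below all control arrays and the third above them. The log2 fold change was −0.09 (95% interval −0.38 to 0.21, limma, adjusted p = 0.907). Like HSD11B1, SGK1 was measured near the median signal of all transcript clusters, where the array responds less.

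DUSP1 (chr5:172768096-172771195) had log2 signals of 11.27, 10.91 and 11.08 in control replicates 1, 2 and 3 and of 11.22, 11.14 and 11.08 in the overexpressing replicates. The overexpression arrays again fell inside the control range, so the groups overlapped fully. The log2 fold change was 0.06 (95% interval −0.27 to 0.39, limma, adjusted p = 0.945).

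KLF9 (chr9:70384604-70414657) had log2 signals of 8.23, 9.35 and 9.18 in control replicates 1, 2 and 3 and of 9.02, 8.78 and 8.44 in the overexpressing replicates. It was the most variable of the induced genes, and control replicate 1 lay far below the other control arrays. The means were 8.92 ± 0.60 and 8.74 ± 0.29 (SD, n = 3 arrays per group), so that the log2 fold change was −0.17 (95% interval −0.90 to 0.55, limma, adjusted p = 0.923). Without control replicate 1 the log2 fold change was −0.52 (limma, adjusted p = 0.372), and without control replicate 2 it was 0.04.

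ERRFI1 (chr1:8011727-8026309) had log2 signals of 10.24, 10.48 and 10.35 in control replicates 1, 2 and 3 and of 10.41, 10.26 and 10.14 in the overexpressing replicates. The lowest array was an overexpression array and the highest a control array, with the rest interleaved. The log2 fold change was −0.09 (95% interval −0.41 to 0.24, limma, adjusted p = 0.915).

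**Figure D2:**
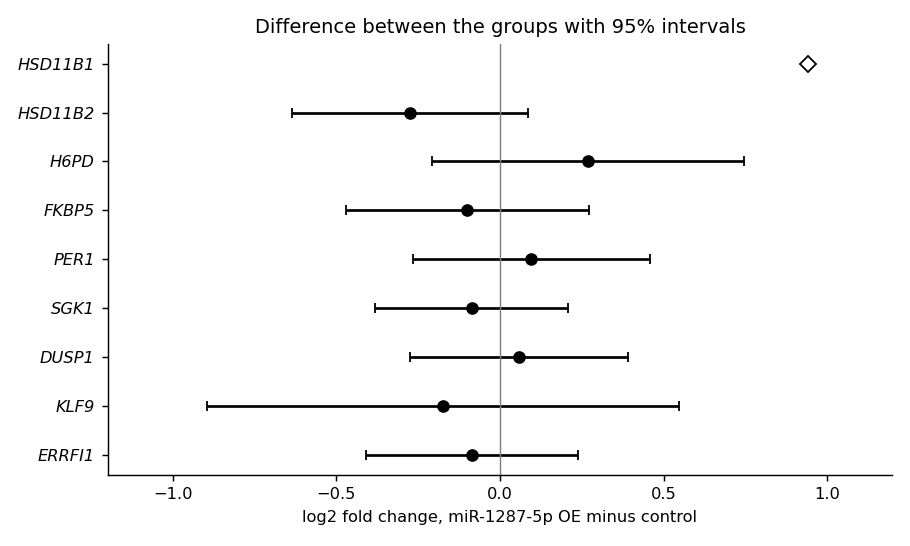
Log2 fold change between miR-1287-5p overexpressing and control cells (horizontal axis) for the 9 measured genes, with 95% intervals from limma as bars, and HSD11B1 as an open diamond without an interval because it was chosen by this difference. The intervals of the 8 other genes all include 0, while HSD11B1 lies at 0.94.

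In each of the 6 induced genes the arrays of at least 1 group spread over a wider range than the difference of the group means. The order of the arrays was therefore set beside their order along the first principal component described above. The order of the 6 arrays by KLF9 signal was exactly their order along the component, from control replicate 1 at the low end to control replicate 2 at the high end, which is 15 of 15 pairs of arrays. FKBP5 kept 14 of 15 pairs and ERRFI1 13 of 15. H6PD ran exactly the other way, with 0 of 15 pairs in the same order, and PER1 kept 1 and DUSP1 4. HSD11B1 (8 of 15), HSD11B2 (9) and SGK1 (6) lay between these extremes. The groups of HSD11B1 and HSD11B2 do not overlap, which by itself fixes the order of every pair across groups. HSD11B1 was also chosen by its group difference, so nothing is concluded from the counts of HSD11B1 and HSD11B2. Among the overexpression arrays alone, both genes kept the order of the component. These counts describe 6 arrays in which both groups are mixed along the component, and genes induced by the same receptor ran in opposite directions along it. The component's part in the fold changes of these genes was not tested.

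**Figure D3:**
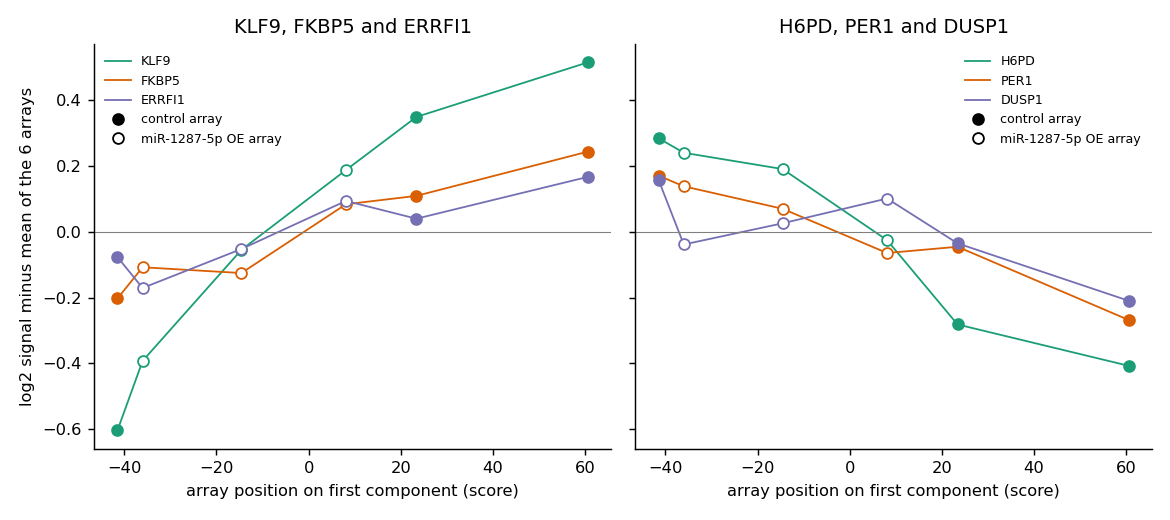
Log2 signal minus the mean of the 6 arrays (vertical axis) against the position of each array on the first principal component (horizontal axis, score), for control arrays (filled) and miR-1287-5p overexpression arrays (open). KLF9 and ERRFI1 (left) are lowest in the arrays at the low end, control replicate 1 at −41.5 and overexpression replicate 3 at −36.0, and FKBP5 (left) is lowest in control replicate 1, whereas H6PD, PER1 and DUSP1 (right) are highest in control replicate 1.

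A wider list of 49 genes that glucocorticoids induce in various cells was compared in the same way, and 34 were measured, among them the 6 above. Of these 34, 0 passed the adjusted threshold in limma, and 3 were higher and 0 lower at an unadjusted p under 0.05 (8.82% and 0%, against 2.96% and 2.44% of all transcript clusters). In 7 of 34 (20.6%, against 6.88%) every overexpression array lay above every control array, and in 1 (2.94%, against 4.33%) below. The median log2 fold change was 0.06, against 0.03 for all transcript clusters, with 19 above 0 and 15 below. Without control replicate 1 the median was 0.11. TSC22D3, one of the best known induced genes, was not analysed.

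MT1E, a metal-binding metallothionein, had log2 signals of 6.80, 6.603 and 6.97 in control cells and of 7.43, 7.46 and 7.36 in overexpressing cells. The groups lay well apart, at a log2 fold change of 0.62 (limma, adjusted p = 0.814). Its relatives MT1X and MT2A had 0.16 and 0.14, and MT1G, dim on all arrays, −0.03. Metallothionein genes are close copies, and probes for one may also bind transcripts of another. IRS2, an adaptor of the insulin receptor, had 0.36 (8.48, 8.41 and 8.60 against 8.87, 8.93 and 8.79), and the kinase MAP3K6 0.38 (7.88, 7.68 and 7.68 against 8.01, 8.18 and 8.20). Both were separated between the groups, at an limma, adjusted p = 0.871 each. The transcription factor TFCP2L1 had 0.54 with overlapping groups. ZBTB16, a zinc finger gene that is strongly induced in many glucocorticoid-treated cells, had 0.19 (7.24, 7.53 and 7.29 against 7.81, 7.40 and 7.42). All of the ZBTB16 overexpression arrays but replicate 1 lay within the control range.

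Of 24 genes that glucocorticoids repress, mostly cytokines, proteases and adhesion molecules, 16 were measured, 7 of them below the median signal. None passed the adjusted threshold in limma, and 1 was higher and 0 lower at an unadjusted p under 0.05 (6.25% and 0%, against 2.96% and 2.44% of all transcript clusters). The chemokine CCL2 was that gene, with a log2 fold change of 0.40 between means of 2.22 and 2.61, where the array hardly measures a transcript. CCL5 had 0.27, TNF −0.24 and CXCL8, the neutrophil chemokine, −0.36 with overlapping groups. In 2 of the 16 (12.5%, against 6.88% of all transcript clusters) every overexpression array lay above every control array, and in 0 (against 4.33%) below. The median of the list was 0.0018, with 8 above 0 and 8 below. Prostaglandin synthase PTGS2 (−0.02) and ICAM1 (0.04) lay near 0.

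Among 30 listed partners of the receptor, 17 were measured, and 0 passed the adjusted threshold in limma, with 0 higher and 1 lower at an unadjusted p under 0.05 (0% and 5.88%, against 2.96% and 2.44% of all transcript clusters). The median was −0.10, with 4 above 0 (23.5%, against 55.5% of all transcript clusters) and 13 below. On each array the list's median was taken after each gene's mean was taken off. It was highest in control replicate 2 (0.24) and lowest in overexpression replicate 3 (−0.17), with control replicate 1 at −0.10. These arrays lie at or near the ends of the first principal component, whose part in this median was not tested. MED14, a Mediator subunit that contacts the receptor, had log2 signals of 8.78, 9.09 and 8.91 in control cells and of 8.69, 8.40 and 8.49 in overexpressing cells, a log2 fold change of −0.40 (limma, adjusted p = 0.871). The import factor IPO8 had −0.50, the Mediator subunit MED1 −0.44 and the coactivator NCOA1 −0.36, each with overlapping groups. The mineralocorticoid receptor NR3C2, which also binds cortisol, was not analysed.

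Regulators of the HSD11B1 gene gave 6 measured genes of 13, with log2 fold changes between −0.07 and 0.34. NFKB2, a subunit of NF-kappaB, had 0.34 (8.09, 7.75 and 7.98 against 8.15, 8.36 and 8.33), with the groups apart by a small margin (limma, adjusted p = 0.871). RELA had 0.09 and NFKB1 −0.0025. CEBPB and CEBPD, the C/EBP factors through which HSD11B1 is induced in fat cells and fibroblasts, were not analysed.

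PER1 is also a clock gene, and 12 of 20 listed clock genes were measured. None passed the adjusted threshold in limma, and 2 were higher and 0 lower at an unadjusted p under 0.05 (16.7% and 0%, against 2.96% and 2.44% of all transcript clusters). In 3 (25%, against 6.88%) every overexpression array lay above every control array, and in 1 (8.33%, against 4.33%) below. NPAS2, a partner of BMAL1, had log2 signals of 6.34, 6.45 and 6.33 in control cells and of 7.19, 7.19 and 6.94 in overexpressing cells. All overexpression arrays were clearly above the control arrays, at a log2 fold change of 0.74 (limma, adjusted p = 0.690). DBP, a clock output gene, had 0.56 (6.83, 6.40 and 6.32 against 6.99, 7.12 and 7.11) and its relative TEF 0.31, while the repressor CRY1 had −0.40, each with groups that did not overlap. PER2 (−0.04) and PER3 (0.01) lay, like PER1, near 0.

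**Figure D4:**
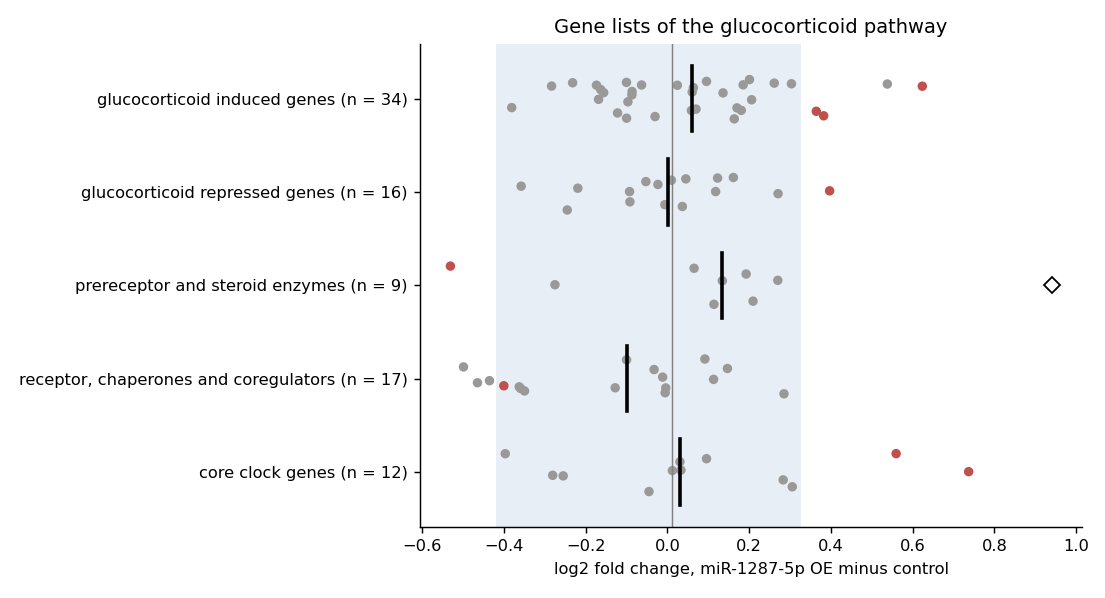
Log2 fold change between miR-1287-5p overexpressing and control cells (horizontal axis) for the measured genes of 5 lists, with the list median as a black bar, genes at an unadjusted p under 0.05 in red, and HSD11B1 as an open diamond because it was not tested. The shaded band holds the middle of all 14884 genes with a symbol (5th to 95th percentile, −0.42 to 0.32) with their median as a grey line, and the medians of the 5 lists lie between −0.10 and 0.13.

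The genes whose profile was nearest to that of HSD11B1 over the 6 arrays were sought among 10347 genes with a mean above the median signal, by the root mean square difference of log2 signals after each gene's mean was taken off. The aquaporin AQP9 was nearest, with a difference of 0.13 log2 units, and signals of 7.20, 7.51 and 7.17 in control cells and of 8.38, 8.18 and 7.79 in overexpressing cells. It shared with HSD11B1 the order of all 3 overexpression arrays, with replicate 1 highest and replicate 3 lowest. That is also their order along the first principal component. The distance includes the group difference by which HSD11B1 was chosen, so near profiles share that difference by construction. The next were the transcription factor TBX5 (0.22), NPAS2 (0.23), the transcription factor HOXD13 (0.27) and the interleukin-33 receptor IL1RL1 (0.27). HOXD13 reached the required mean only through the overexpression arrays, with group means of 3.92 in control and 5.23 in overexpressing cells. TBX5 and HOXD13 had the same order of the overexpression arrays as HSD11B1, NPAS2 and IL1RL1 had not. None of these 5 is among the listed genes that glucocorticoids induce. Only 29 genes of that list lay above the median signal, against 10347 candidates. Their absence among 5 was therefore likely from the start, and nothing is concluded from it.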

How the data were processed

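Gene expression was measured on 6 Affymetrix Human Gene 2.0 ST arrays. The deposited values are log2 signals, which the authors computed with RMA in Partek Genomics Suite 6.6; RMA corrects background, quantile normalizes the arrays and summarizes probes by median polish. They also name a filtering step that is not described. No further scaling was applied here. Quantile normalization removes any shift common to all transcripts. The number of arrays limits the precision.

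Symbols came from the platform's probe table (16098 transcript clusters, 14884 genes), updated through RefSeq (GRCh38.p14). For each gene, the transcript cluster with the highest mean was used. Groups were compared with limma 3.58.1 in R 4.3.3 (lmFit, eBayes), fitted to all 53617 transcript clusters. The statistics section of the paper names the unpaired Student test, which was run as the methods' t-test. The fit was also run on simulated data with independent noise for each value. Those data lack the differences shared by many transcripts between these arrays, so nothing about the present values is concluded from that run.

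The genes, lists and alternatives were chosen with earlier results of these data known. Named are all 10 selected genes, up to 4 genes per list with the smallest p, genes named for their role (TSC22D3, ZBTB16, NR3C2, PGD, CEBPB, CEBPD, G0S2, TRAF3IP3), and the 5 nearest profiles to HSD11B1. Others (MT1X, MT2A, MT1G, PPARG, ICAM1, PTGS2, PER2, PER3, RELA, NFKB1, HSD11B1L, KRT18, ESR1, PGR, CIDEC, LPL, CD14, IL24, MIR205, ALB, CD68, GATA3, KRT8, KRT19, FOXA1) were added as relatives or markers after their values were seen.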

Additional observations from a re-analysis of the deposited data

How the results depend on the processing

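The comparison was repeated under 15 alternatives, namely each of the 6 arrays left out, array weights, cyclic loess, centred array medians, a trend on intensity, a block for the replicate number, the methods' t-test, no dim transcript clusters, those with a symbol alone, and the mean over a symbol's transcript clusters. In none of them did any of the 8 tested genes pass an adjusted p of 0.05, the lowest being 0.167. HSD11B1 kept a log2 difference between 0.91 and 1.10 under the alternatives that use all arrays, and between 0.75 and 1.22 with an array left out. Leaving out control replicate 2 turned the sign of 3 genes whose values lie near 0, DUSP1 to −0.031, KLF9 to 0.041 and PER1 to −0.015 (ranges with an array left out −0.031 to 0.15, −0.52 to 0.041 and −0.015 to 0.20). With an array left out, the other values lay between −0.23 and −0.0031 for FKBP5, 0.13 and 0.48 for H6PD, −0.34 and −0.17 for HSD11B2, −0.16 and −0.05 for SGK1 and −0.15 and −0.02 for ERRFI1. The median of the glucocorticoid induced genes was between 0.029 and 0.11 with an array left out, the highest without control replicate 1, and that of the repressed genes between −0.05 and 0.04. Whether the replicate number marks a pairing is not given in the sources used here. Deviations of same-numbered arrays from their group means correlated with r = −0.47, −0.0018 and −0.08. With 3 arrays per group these values cannot settle it. With the replicate block, 0 transcript clusters passed the adjusted threshold (2 without it), and the log2 fold changes were those of the fit without it, such as −0.10 for FKBP5. Array weights gave control replicate 3 a weight of 7.91 and control replicates 1 and 2 weights of 0.37 and 0.51, and 25 transcript clusters then passed. Signals near the median of all transcript clusters, as for HSD11B1, HSD11B2 and SGK1, limit how small a change can be measured.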

Other observations

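Other members of the gene families of the response genes were measured for 37 of 47 listed genes, and none passed the adjusted threshold in limma. At an unadjusted p under 0.05, 2 were higher and 0 lower (5.41% and 0%, against 2.96% and 2.44% of all transcript clusters). DUSP4, a phosphatase of the same family as DUSP1, had log2 signals of 5.76, 5.46 and 5.62 in control cells and of 5.97, 6.11 and 6.08 in overexpressing cells, a log2 fold change of 0.44 (limma, adjusted p = 0.865). KLF4, a relative of KLF9, had 0.37 (6.30, 6.18 and 6.34 against 6.62, 6.599 and 6.70, limma, adjusted p = 0.871). KLF11 had −0.28 and the hydroxysteroid dehydrogenase HSD17B14 0.31, the latter below the median signal. In 4 of the 37 (10.8%, against 6.88% of all transcript clusters) every overexpression array lay above every control array, and in 0 (against 4.33%) below. The median of the list was 0.0056.

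The genes next to HSD11B1 on chromosome 1 were compared as well. G0S2, the gene just before it, had log2 signals of 5.78, 5.64 and 5.55 in control cells and of 5.49, 5.65 and 5.48 in overexpressing cells, a log2 fold change of −0.12 with overlapping groups. TRAF3IP3, the nearest measured gene after it, had 0.23 from signals near the median of all transcript clusters, with groups that did not overlap. Of 36 measured genes within 3 Mb on either side, 16 lay above 0 and 20 below, with a median of −0.02, and none passed the adjusted threshold in limma (3 higher and 1 lower at an unadjusted p under 0.05, 8.33% and 2.78%, against 2.96% and 2.44% of all transcript clusters). In 4 of the 36 every overexpression array lay above every control array, and in 2 below, against 6.88% and 4.33% of all transcript clusters. The cytokine gene IL24 had the highest value of the 36, 0.75, with a mean below the median signal, and the microRNA gene MIR205 the lowest, −1.35, with signals of 5.32, 5.64 and 5.80 in control cells and of 3.78, 4.07 and 4.86 in overexpressing cells (limma, adjusted p = 0.767 each). Among the listed neighbours, the semaphorin receptor PLXNA2 had 0.37 and the surface protein CD34 −0.32, at an limma, adjusted p = 0.871 each.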
